A study of Danio rerio with 8 samples.

Results

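Neuronal intermediate filament genes encode the neurofilament subunits and their relatives, and they were followed here in the zebrafish retina after optic nerve crush. The genes were chosen by name, as ina, nefma, nefmb, nefla, neflb, prph and nes, and a probe was taken as a member when the identifier printed on the array mapped to one of these names. Of the 7 names, 4 were matched to a probe. A pair of further genes entered under the name ina, because zebrafish carry the duplicates inaa and inab and the gene name table gives the symbol INA to both. The result was 11 probes of 6 genes among the 43603 probes of the array, which stood for 28392 gene symbols and unmatched identifiers. Probes of nefla, prph and nes were not matched and these genes were not analysed here. The study itself listed prph among its top upregulated genes on these arrays, so its absence here reflects the matching of identifiers.

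RNA came from whole right retinae of wild type adult zebrafish, 9 to 12 months old, with males and females not told apart. The 4 control pools were taken from intact fish that had no operation, and the 4 crush pools were taken 3 days after the right optic nerve had been crushed behind the eye. The retinae of 4 fish made up a pool, which was hybridised to 1 one-colour Agilent array, so that 8 arrays were compared. The whole retina holds photoreceptors, interneurons and glia besides the retinal ganglion cells (RGCs) whose axons were severed, and in such bulk RNA a loss of cells and a loss of RNA per cell cannot be told apart.

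Neurofilaments are the intermediate filaments of neurons. They assemble from light, medium and heavy subunits together with internexin or, in peripheral and some central neurons, peripherin, and they fill the axon, set its calibre and are carried along it by slow axonal transport. In fish, whose RGCs regrow their axons, the internexin-like protein gefiltin was first described in the goldfish visual pathway, and nestin marks neural progenitors.

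By their names, the paralogs nefma and nefmb encode the medium subunit, and neflb the light subunit measured here. The study regards nefmb as the likely zebrafish counterpart of the heavy subunit gene nefh, from its homology to human NFH. In the RefSeq annotation of the GRCz12tu assembly, nefmb and neflb are neighbours on chromosome 8, nefma lies beside nefla on chromosome 21, inaa is on chromosome 13 and inab, which carries the older name gefiltin, is on chromosome 1. The transcript that the study called ina (NM_199534 on the array) is named neff1 in that table, with Ina among its older names, and lies on chromosome 5. It is called ina below. The array identifiers of the others are NM_001111214 for nefma, NM_001123280 for nefmb, NM_001039838 for neflb, NM_001144784 for inaa and NM_131032 for inab.

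The study placed a predicted miR-29b site from the 3′ UTR of nefmb and one from ina into reporter constructs, each as a wild type (WT) and a mutated (MT) oligonucleotide. They are shown because nefmb and ina are the members that were lower in the crush pools. Written 5′ to 3′, with the 9 bases at the 3′ end in capitals, where the 2 wild type sites are identical:
nefmb WT: ttctcttggcaataATGGTGCTA
nefmb MT: ttctcttggcaataATAGGGTTG
ina WT: atcctattaggagtATGGTGCTA
ina MT: atcctattaggagtATAGGGTTG
Each site is 23 bases long. The wild type sites share 13 of 23 bases, of which 4 fall among the 14 bases before the capitals. Both were chosen by the study as predicted miR-29b sites. Its eva1a and layna sites for miR-29b end in the same bases as the capitals, so this ending is not particular to filament genes. Each mutated site differs from its wild type at 4 bases, all within the capitals.

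Of the 6 genes, 2 were over-expressed after crush (nefma and inab), 2 were under-expressed (nefmb and ina), and neflb and inaa passed no threshold. To pass, a probe had to change at least 1.5-fold in either direction with an adjusted p of at most 0.05 in the limma fit over 43601 probes, and a gene was counted when at least 1 of its probes passed. Over all 13143 genes with a symbol, 3.02% were over-expressed and 1.19% were under-expressed by the same rule. By probe, 3 of 11 were over-expressed, against 1.89% of all probes, and 4 of 11 were under-expressed, against 0.865%. The pools of the 2 groups did not overlap for 7 of the 11 probes, and did not overlap for 13.9% of the 43192 probes that had a value on every array.

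All values below are quantile-normalised log2 signals after background correction, given for pools 1 to 4 of each group. Signals of different probes were not set against each other, since a probe's brightness also depends on its sequence.

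The medium subunit gene nefma was higher in every crush pool. Its brighter probe, A_15_P310216, read 9.36, 9.76, 9.47 and 9.62 in the control pools and 11.78, 11.64, 11.77 and 11.23 in the crush pools. The lowest crush pool lay 1.47 above the highest control pool. The mean rose from 9.55 ± 0.17 to 11.61 ± 0.26 (SD, n = 4), a log2 fold change of 2.05 (SE 0.15, 95% interval 1.7 to 2.4) or 4.14-fold, with an adjusted p of 0.000804 in limma. It ranked 24 of 43601 probes by p. The dimmer probe, A_15_P561882, read 6.51, 7.01, 6.32 and 6.47 in the control pools and 8.97, 8.48, 8.81 and 8.05 in the crush pools, again without overlap. This was a rise of 2.00 (SE 0.23, adjusted p = 0.00342 in limma), or 4.01-fold. The 2 probes differed in their change by 0.049, which an exact two-sided permutation test over pools did not separate from 0 (p = 0.686).

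Its paralog nefmb moved the other way. Probe A_15_P176396 read 6.64, 7.16, 6.44 and 6.63 in the control pools and 4.96, 5.06, 5.36 and 5.40 in the crush pools. Every crush pool lay below every control pool, with a gap of 1.04. The mean fell from 6.72 ± 0.31 to 5.19 ± 0.22 (SD, n = 4), a log2 fold change of -1.53 (SE 0.18, 95% interval -1.93 to -1.12, adjusted p = 0.00381 in limma) that left 34.7% of the control signal. Its brightest probe over the 8 arrays, by a small margin, was A_15_P408580, which read 6.61, 7.16, 6.61 and 6.63 in the control pools and 5.99, 5.01, 5.02 and 5.77 in the crush pools. The groups were again apart, by 0.61, but the crush pools were more spread, with pools 2 and 3 lowest. Its change was -1.30 (SE 0.25, 95% interval -1.88 to -0.73, adjusted p = 0.0328 in limma), or 40.5% of the control signal.

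Both nefmb probes were dim, and the size of the fall depended on the background correction. A_15_P408580 was well above background on 4 control arrays and 2 crush arrays, A_15_P176396 on all 8. Over the alternatives that kept all 8 pools, the change ran from -1.97 to -0.74 for the former and from -2.17 to -0.85 for the latter, the largest fall with the scanner's processed signal and the smallest with an offset of 50. A_15_P408580 lost its call without control pool 1, 2 or 3 (adjusted p of 0.0644, 0.0765 and 0.0826 in limma), without crush pool 2, 3 or 4 (0.0944, 0.095 and 0.0516), with the processed signal (0.0521) and with the replicate number as a block (0.0972), whereas A_15_P176396 kept its call in all 16 alternatives.

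The light subunit gene neflb, next to nefmb on the chromosome, gave overlapping groups at all 3 probes. The brightest, A_15_P172651, read 8.72, 9.58, 8.60 and 8.91 in the control pools and 9.10, 8.37, 8.84 and 9.28 in the crush pools. Control pool 2 was the highest of the 8 and crush pool 2 the lowest. The means were 8.95 ± 0.44 and 8.90 ± 0.39 (SD, n = 4), a difference of -0.056 (SE 0.26, adjusted p = 0.931 in limma). The 95% interval, from -0.65 to 0.53, still held changes of up to about the size of the fold threshold in either direction. The other probes gave -0.054 (A_15_P646111, interval -0.65 to 0.54) and 0.03 (A_15_P763487, interval -0.66 to 0.72).

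**Figure D1:**
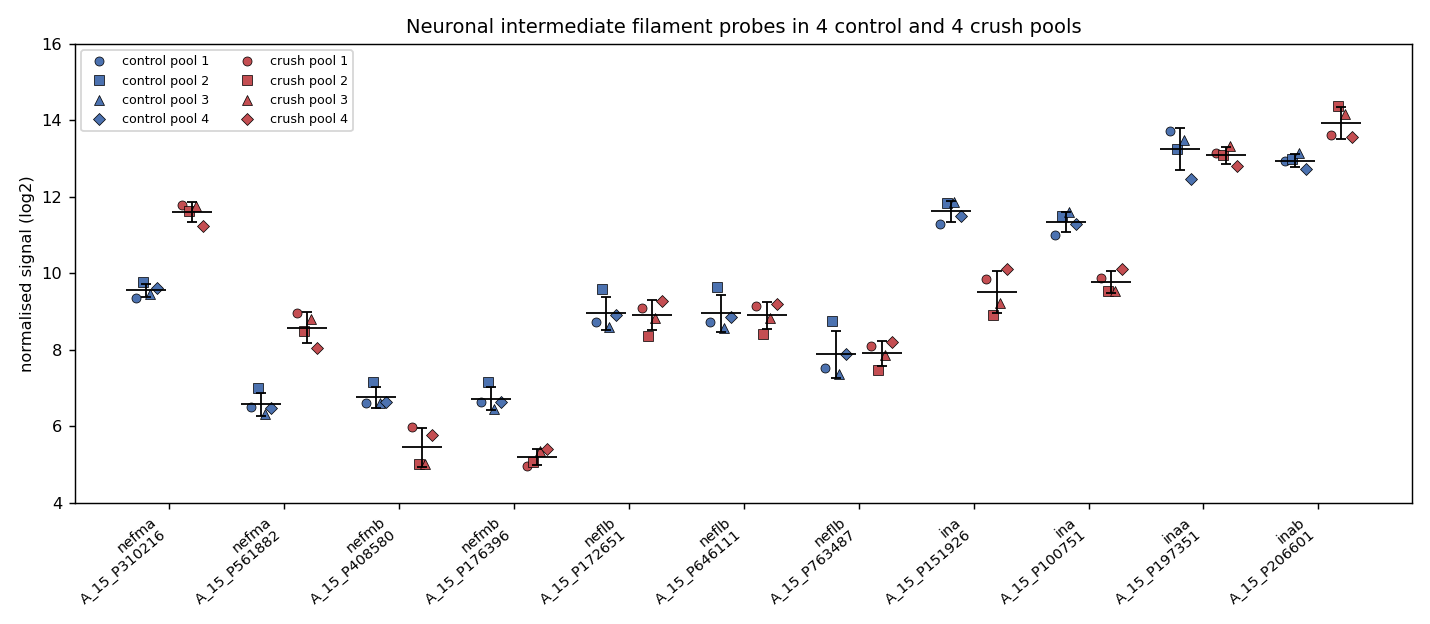
Normalised log2 signal (vertical axis) of the 11 neuronal filament probes (horizontal axis) in the 4 control pools (blue) and 4 crush pools (red), with a marker shape for each pool number, a line at the group mean and bars of 1 SD. The groups are apart for both probes of nefma, nefmb and ina and for inab, and overlap for the 3 neflb probes and for inaa. Levels of different probes cannot be compared.

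The transcript called ina was lower in every crush pool at both of its probes. The brighter, A_15_P151926, read 11.30, 11.83, 11.87 and 11.49 in the control pools and 9.84, 8.91, 9.22 and 10.10 in the crush pools. Crush pools 2 and 3 were the lowest, and the nearest crush and control pools were 1.2 apart. The mean fell from 11.62 ± 0.27 to 9.52 ± 0.55 (SD, n = 4), a log2 fold change of -2.10 (SE 0.27, 95% interval -2.71 to -1.49, adjusted p = 0.00573 in limma) that left 23.3% of the control signal. A_15_P100751 read 11.01, 11.50, 11.61 and 11.29 in the control pools and 9.88, 9.54, 9.54 and 10.11 in the crush pools. Here the fall was smaller, -1.58 (SE 0.18, adjusted p = 0.00343 in limma), and left 33.3% of the control signal. The difference of -0.52 between the 2 probes had an exact two-sided permutation p of 0.0286, the smallest that 4 against 4 pools can give.

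Of the internexin duplicates, inab rose and inaa did not pass. The inab probe, A_15_P206601, read 12.95, 13.00, 13.14 and 12.72 in the control pools and 13.61, 14.38, 14.16 and 13.56 in the crush pools. All crush pools were above all control pools, by at least 0.43, with crush pools 2 and 3 highest. The mean rose from 12.95 ± 0.18 to 13.93 ± 0.41 (SD, n = 4), a log2 fold change of 0.98 (SE 0.20, 95% interval 0.52 to 1.44, adjusted p = 0.0395 in limma), or 1.97-fold. This call was close to its threshold. It was lost without control pool 1, 2, 3 or 4 (adjusted p of 0.0836, 0.0829, 0.0858 and 0.0661 in limma) and without crush pool 2 or 3 (0.0935 and 0.118), while the change stayed between 0.83 and 1.1.

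For inaa, probe A_15_P197351 read 13.73, 13.26, 13.49 and 12.46 in the control pools and 13.14, 13.10, 13.33 and 12.80 in the crush pools. The control pools spread over a wider range than the crush pools and enclosed all of them. The means were 13.24 ± 0.55 and 13.09 ± 0.22 (SD, n = 4), a difference of -0.14 (SE 0.26, 95% interval -0.73 to 0.45, adjusted p = 0.806 in limma).

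**Figure D2:**
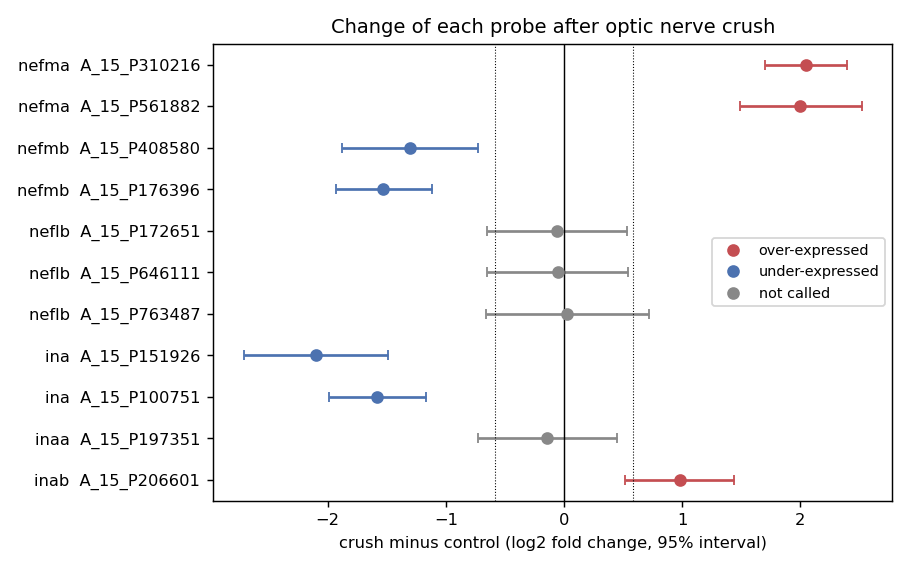
Log2 fold change of crush over control pools (horizontal axis) with its 95% interval for each of the 11 probes (vertical axis), coloured by call, where dotted lines mark the 1.5-fold threshold on either side of 0. The nefma probes lie at 2.05 and 2.00 and the nefmb probes at -1.30 and -1.53, while the neflb and inaa intervals cross 0.

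To ask whether paralogs differed in their response, the log2 signal of one was subtracted from that of the other in each pool and the differences were compared between groups by an exact two-sided permutation test on the brightest probes. In all 6 pairs compared the crush and control pools did not overlap, so that each had an exact permutation p of 0.0286, the smallest possible here. Adjustment over the 6 pairs left it at 0.0286, because this adjustment does not change p-values that are all equal. For nefma with nefmb and for inab with ina this was bound to follow, since each gene alone already separated the groups, in opposite directions. Every pair held a gene whose brightest probe alone separated the groups, so the lack of overlap was largely set by the choice of pairs. How often other gene pairs on the array lack overlap was not computed. The pairs also share genes, so the 6 results are not independent. In the main values nefma and nefmb stood furthest apart, but at an offset of 50 inab and ina did (3.0 against 2.72). The change of nefma exceeded that of nefmb by 3.35 (SE 0.33, 95% interval 2.56 to 4.15), and by 3.31 to 3.58 over the 4 combinations of their probes. This difference also moved with the background correction, from 2.72 at an offset of 50 to 4.1 with the processed signal, each at an exact permutation p of 0.0286. The change of nefmb minus that of its neighbour neflb was -1.25 (SE 0.18, interval -1.68 to -0.81), with -1.56 to -1.25 over 6 combinations of probes. It was -0.69 at an offset of 50 and -1.90 with the processed signal, each at an exact permutation p of 0.0286.

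Among inab, inaa and ina, the change of inab exceeded that of inaa by 1.12 (SE 0.27, 95% interval 0.46 to 1.78) and that of ina by 3.08 (SE 0.49, interval 1.88 to 4.27). With the other ina probe, inab exceeded ina by 2.56. The change of ina minus that of inaa was -1.96 (SE 0.47, interval -3.1 to -0.81), or -1.44 with the other ina probe. The pairs nefmb with neflb and ina with inaa were added after the values had been seen. The members that fell, nefmb and ina, differed by 0.80 in their change at the brightest probes (SE 0.18, interval 0.36 to 1.24), with ina falling further. That difference depended on the probes, with 0.059 as the lowest of 4 combinations, 0.43 (exact permutation p = 0.0571) for the mean of each gene's probes and 0.13 (exact permutation p = 0.714) with the processed signal.

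The members also varied between pools of one group. Set against the control mean, ina (A_15_P151926) was at -1.78, -2.71, -2.40 and -1.52 in crush pools 1 to 4. Over the same pools, nefmb (A_15_P408580) was at -0.76, -1.74, -1.73 and -0.98 and inab at 0.66, 1.43, 1.21 and 0.61. Crush pools 2 and 3 thus had the larger changes for these genes, in both directions. The other nefmb probe did not share this order, with -1.76, -1.66, -1.36 and -1.32, and nefma (A_15_P310216) was at 2.23, 2.09, 2.21 and 1.68, lowest in crush pool 4.

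Some genes of the RGCs also varied between the crush pools. In crush pools 1 to 4, isl2b, a transcription factor gene of RGCs, was at -1.98, -3.09, -2.94 and -2.28 against its control mean, and pou4f2, which encodes a POU factor that RGCs need to differentiate, was at -1.65, -2.24, -2.63 and -1.11. Both were lowest in pools 2 and 3, with a crush SD of 0.53 for isl2b and 0.67 for pou4f2. Not every RGC gene varied so, since tbr1b (-0.89) and pou4f3 (-0.88), also under-expressed, had a crush SD of 0.08 and 0.11. Of 13 listed RGC genes, 11 were measured, all well above background on every array, of which 6 were under-expressed and 1, elavl4, which encodes a neuronal RNA-binding protein, was over-expressed (2.12, SE 0.24, adjusted p = 0.00342 in limma). The 4 that fell most were isl2b (-2.57), pou4f2 (-1.91), rbpms2a (-1.47) and rbpms2b (-1.16), the last 2 encoding RNA-binding proteins of RGCs. The median of the 11 genes was -0.88, against 0.0078 over all genes with a symbol, and their summed linear signal was 95347 to 126302 in the control pools and 62451 to 68814 in the crush pools. The counts, the median and the sum leave out thy1, which was not among the 11 measured genes. The study placed thy1 among its top upregulated genes on these arrays. The part that RGC number or state had in the changes of the filament genes was not tested.

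**Figure D3:**
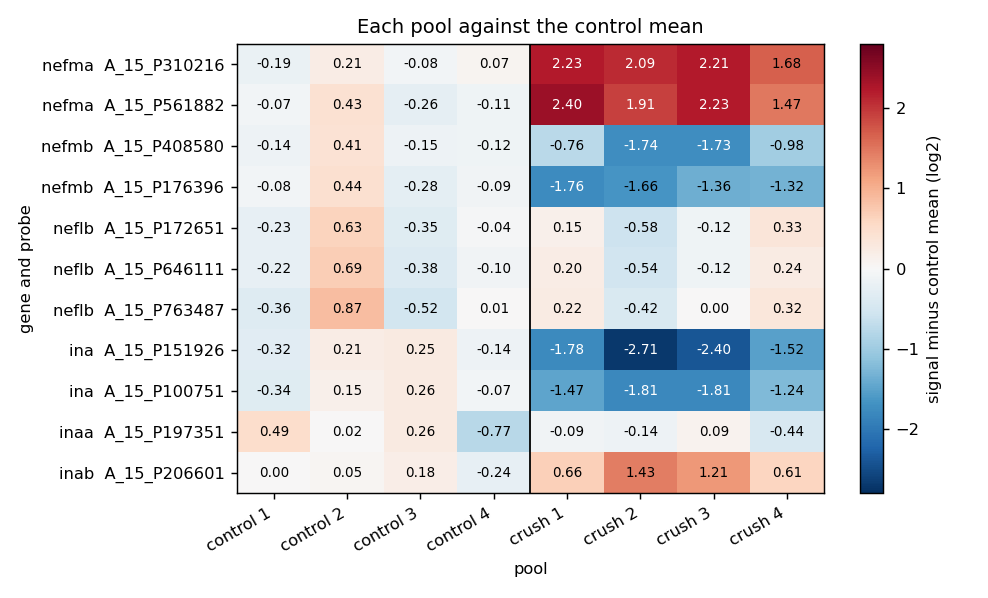
Signal of each of the 11 probes (rows) in each pool (columns) minus the mean of the control pools, in log2 units, with red above and blue below that mean and the value in each cell. Crush pools 2 and 3 hold the largest falls of ina (-2.71 and -2.40 at A_15_P151926) and the largest rises of inab (1.43 and 1.21), and control pool 2 is the highest control for nefma, nefmb and neflb.

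Among the control pools, pool 2 was the highest for all 7 probes of nefma, nefmb and neflb. The array of that pool also stood apart, with 84% of its spots well above background, against 72.5% to 77.6% on the other control arrays and 76.6% to 77.8% on the crush arrays, with 382 spots marked as outliers, and with a lowest signal well above background of 3.39 in log2, against 4.47 to 4.71 on the other 7 arrays. Without control pool 2, nefma and ina kept their calls at both probes and nefmb kept its call at A_15_P176396 (-1.38) but not at A_15_P408580 (-1.17). In the same setting inab lost its call (adjusted p = 0.0829 in limma), and the neflb probes moved to 0.15, 0.18 and 0.32 without passing.

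The median spot intensity was 153 to 194.5, the median local background 17 to 19, and no spot was saturated. Log2 values correlated at 0.979 to 0.991 within groups and 0.973 to 0.986 between them. The 4 control arrays were on one slide and the 4 crush arrays on another, so that slide and group cannot be told apart. All 6 rod genes listed as a check of the retina label were well above background on every array.

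The genes whose pattern over the 8 pools lay closest to each member that passed were found by the root mean square difference of their brightest probes, both centred on the control mean, among 10538 genes. These were genes with a symbol whose brightest probe had a value, well above background, on every array. Closest to nefma were sox11a, a transcription factor gene (0.157, change 2.23), and filip1l (0.168, change 1.94). Closest to ina were emb (0.158, change -2.09) and scn4ba, which encodes a sodium channel beta subunit (0.22, change -2.08). For nefmb the nearest genes were less close, rbpms2b at 0.291 (change -1.16) and tfap2d, a transcription factor gene, at 0.308 (change -1.24). That search used nefmb probe A_15_P408580, which was well above background on 2 crush arrays. Genes that came as near to background in some pools, as that probe did, were left out of the genes compared. The other nefmb probe, with another order of the crush pools, was not searched. For inab they were si:dkeyp-120h9.1 (0.142, change 1.13) and sh3bp5b (0.152, change 0.95).

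Other intermediate filament genes gave 1 call. Of 19 listed non-neuronal filament and lamin genes, 11 were measured, 1 was over-expressed and none under-expressed, and the median change was -0.051. The gene that passed was desmb, a desmin gene of muscle filaments, through A_15_P663176 (1.25, SE 0.23, adjusted p = 0.0288 in limma), which was well above background on 2 control and 4 crush arrays, and through the dimmer A_15_P528172 (1.18, adjusted p = 0.0256), which was not on any control array. Its brightest probe gave 1.03 without passing (adjusted p = 0.102). The vimentin gene vim, expressed in glia, was higher at all 4 probes, by 0.36 to 0.57, but stayed below the fold threshold. Its adjusted p ran from 0.0457 to 0.151 in limma, with A_15_P171041 (0.0457) and A_15_P748936 (0.0467) under 0.05. For gfap, the filament gene of Muller glia, the change was -0.14 to 0.14 at 3 probes. Keratins, the filaments of epithelia, had no gene past the thresholds among 18 measured, by limma, with 2 at an unadjusted p under 0.05. At the brightest probes, 13 of the 18 had a higher mean in the crush pools. Their changes ran from -0.57 to 1.14, with a median of 0.16.

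Genes that act on neurofilaments were mostly not called. The motors of axonal transport had no gene past the thresholds in limma among 10 measured. At the brightest probe of each, 2 had an unadjusted p under 0.05 and changes ran from -0.29 to 0.42. Kinases of neurofilament tails had none among 14 measured, where at the brightest probes 3 had an unadjusted p under 0.05 and the range was -0.75 to 0.49. Of 6 measured genes of filament turnover, capn1b, a calpain protease gene, was over-expressed (1.01, SE 0.18, adjusted p = 0.0214 in limma). Of the 12 listed plakins and ankyrins only 2 were measured, and ank1a, an ankyrin gene whose product ties membrane proteins to the cytoskeleton, was under-expressed (-1.72, SE 0.15, adjusted p = 0.000931 in limma). Its dimmer probe, A_15_P112233, gave -1.05 without passing (adjusted p = 0.0754 in limma) and was well above background on 4 control arrays and 1 crush array.

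**Figure D4:**
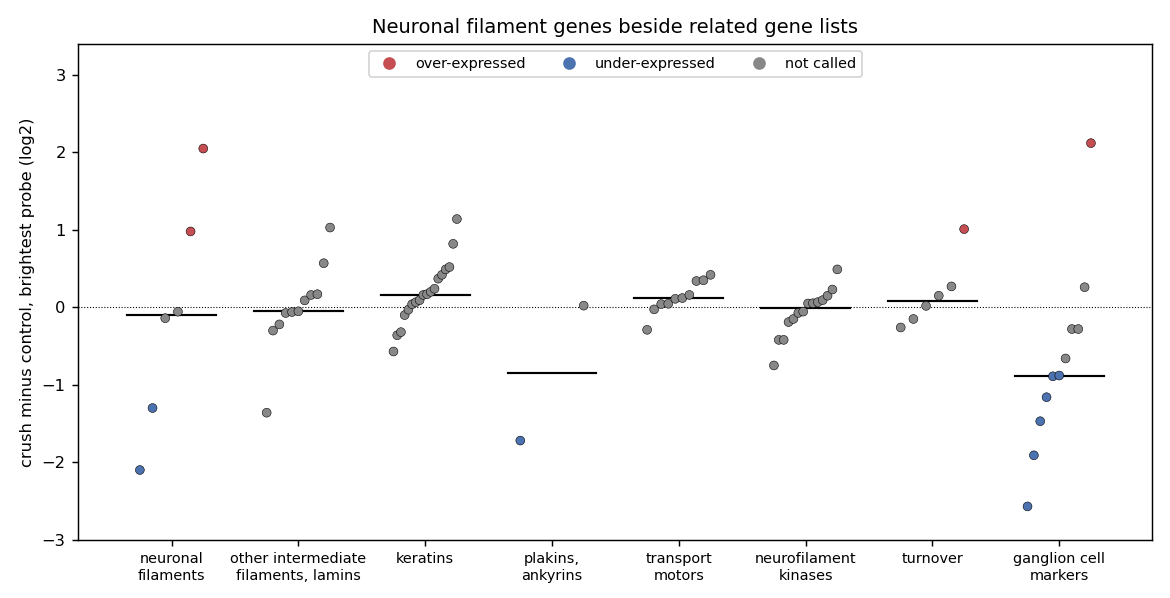
Log2 fold change of the brightest probe (vertical axis) of each measured gene in the neuronal filament set and in 7 related lists (horizontal axis), coloured by the call of that probe, with a line at the median of each list. The neuronal filament genes spread from -2.10 to 2.05, while the transport genes lie between -0.29 and 0.42, and desmb is grey because its brightest probe did not pass.

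Across the 16 alternatives in processing, design and pools, nefma kept its call as over-expressed and nefmb and ina theirs as under-expressed, by at least 1 probe each. Over these alternatives the nefma change ran from 1.98 to 2.18 at the brighter probe and from 1.57 to 2.18 at the dimmer one, and that of ina from -2.29 to -1.90 and from -1.70 to -1.47.

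**Figure D5:**
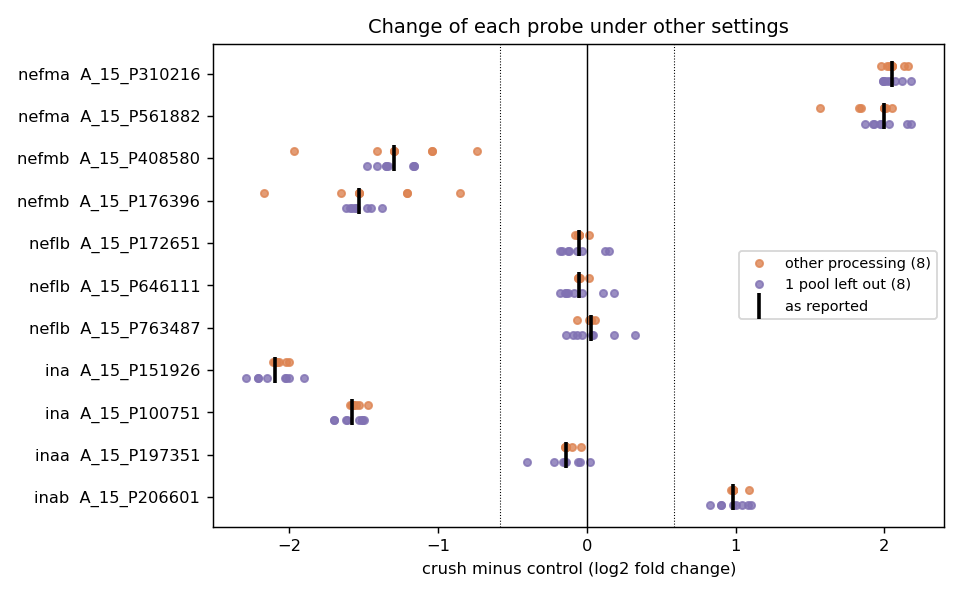
Log2 fold change of crush over control (horizontal axis) for each of the 11 probes (vertical axis) as reported (black bar), under 8 other settings with all pools (orange) and with each of the 8 pools left out (purple), where dotted lines mark the 1.5-fold threshold. The nefmb probes spread most with the processing, from -2.17 to -0.74, and the nefma and ina probes keep to their side of 0.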

How the data were processed

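RNA from 8 pools was labelled with Cy3 and hybridised to Agilent zebrafish 4x44K V3 arrays. The deposited scanner files, written by Feature Extraction 10.7.3.1, hold a median intensity, a local background intensity and a processed signal per spot, with no normalisation between arrays. A table of the authors' log2 values was used as an alternative. It matched, to within 5e-09, what limma gives from the intensities with normexp background correction (offset 16) followed by quantile normalisation of the 45220 spots.

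The main values were made from the median intensities by normexp with offset 0. Outlier spots were set to missing and control spots were dropped before the quantile step. After taking log2, replicate spots were averaged. Any probe measured on at least 2 arrays per group entered lmFit and eBayes (limma 3.58.1, R 4.3.3) without covariates, and Benjamini-Hochberg adjustment ran over 43601 probes. Permutation tests covered all 70 relabellings of the pools. Tables and plots came from Python 3.11.15 with numpy 2.4.6, pandas 2.3.3, scipy 1.17.1 and, for plots, matplotlib 3.10.9. The fit was tested on simulated data.

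Groups came from the sample titles. Every matched member is named with every probe matched to it. Listed genes are named only where they passed (at most 4 a list) or define a cell type. The exceptions are vim, bfsp2, tbr1b and pou4f3, which were named after their values were seen. The members and lists were chosen with earlier results of these data known. RefSeq accessions named 25598 of 43603 probes (58.7%). One listed gene that acts on neurofilaments is not reported here. None of the 9 listed microtubule-associated protein genes was matched. Probe sequences were not used here, so signal shared between paralogs was not examined. Precision is limited by having 8 arrays, and p-values cover the spread between these pools. Alternatives were offsets of 16 and 50, median scaling, the processed signal scaled to its 75th percentile, the authors' values, outlier spots kept, dim probes left out, a replicate block, an absolute log2 threshold of 1.5, other summaries over probes, and each pool left out. The pairs nefla with neflb and prph with ina could not be computed, for want of a matched probe.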

Additional observations from a re-analysis of the deposited data

Results flagged for a closer look

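One value stood apart from its group. At nefmb probe A_15_P408580, control pool 2 read 7.16, whereas the other control pools read 6.61 to 6.63, and the gap made up 0.955 of the group's range, above Dixon's critical value at 95% for 4 samples. It was the only one of 22 groups of 4 pools to do so, and chance alone flags about 1 in 20 groups. Without this pool the change of the probe was -1.17 and no longer passed (adjusted p = 0.0765 in limma).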

How the results depend on the processing

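The calls of nefma, nefmb and ina held under all 16 alternatives. The number of over-expressed member genes was 1 in place of 2 with the replicate block and at an absolute log2 change of at least 1.5, and 1 to 2 with a pool left out, since inab lost its call (adjusted p = 0.0551 in limma with the block). The under-expressed members stayed at 2 with any pool left out. Same-numbered pools showed little shared deviation (correlations from -0.21 to 0.17, the highest for pool 4). With so few pools this cannot decide whether the numbers pair them. Over all probes, 826 were over-expressed, 368 with the block, 197 at the higher fold threshold and 356 to 1033 with a pool left out. The 377 under-expressed became 210 at an offset of 50, 1204 with median scaling (and 1176 over-expressed), 866 with the processed signal (and 700), 128 with the block, 30 at the higher fold threshold and 122 to 500 with a pool left out. With a pool left out, the nefma to nefmb difference was 3.16 to 3.58, inab to ina 2.73 to 3.4, inab to inaa 0.96 to 1.3, nefmb to ina 0.67 to 0.89, nefmb to neflb -1.36 to -1.12 and ina to inaa -2.25 to -1.75. The nefmb to ina difference was 0.13 with the processed signal (exact permutation p = 0.714) and 0.43 with the mean of the probes (p = 0.0571). The causes of these shifts were not tested. The lowest signal well above background was 3.39 in log2 on the array of control pool 2 and 4.47 to 4.71 on the others, and the crush pools of nefmb read 4.96 to 5.99.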

Other observations

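Beside the RGC list, other cell type lists of the retina gave fewer calls. Of 11 measured genes of horizontal and amacrine cells, 2 were under-expressed, both encoding the calcium-binding protein calretinin, which RGCs can also express. They were calb2b (-1.94, SE 0.21, adjusted p = 0.00275 in limma) and calb2a (-0.81, SE 0.13, adjusted p = 0.0168 in limma). At the brightest probes, 10 of the 11 genes had a lower mean in the crush pools, with a median change of -0.3. The summed linear signal of the list was 216720 to 267518 in the control pools and 145330 to 203075 in the crush pools. Of 9 measured genes of retinal progenitors, the RNA-binding protein gene lin28ab was over-expressed (1.90, SE 0.38, adjusted p = 0.0361 in limma). That probe was well above background on 2 control and 4 crush arrays. Probe A_15_P723916 also passed (2.83, adjusted p = 0.00117 in limma), without any control array well above background. Probe A_15_P103857, well above background on no array, gave -0.01.

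Among 9 genes of Muller glia, 7 of oligodendrocytes, 9 of myeloid cells, 6 of skeletal muscle, 6 of rods and 7 of lens, no gene passed the thresholds in limma, and 1, 0, 3, 3, 3 and 3 had an unadjusted p under 0.05 at their brightest probe. Their median changes were -0.016, 0.12, 0.40, -0.092, -0.33 and -1.55. The summed signal of the lens genes was 259 to 13424 in the control pools and 163 to 207 in the crush pools, and bfsp2, a filament gene of the lens, was at -1.36 (SE 0.88, adjusted p = 0.435 in limma). At their brightest probes, none of the 7 lens genes was well above background on all arrays. The sums and the median change of the lens list therefore include values near background.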
